A study of Mus musculus with 8 samples.

Results

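The DNA methyltransferase genes Dnmt3a, Dnmt3b, Dnmt3l and Dnmt1 and the gene of their partner UHRF1 were followed in RNA-seq of mouse testis. They were taken by gene symbol from the deposited gene tables, and all 5 were listed in every library, among the 16282 genes listed in all 8. The study compared Dnmt3C IAP/IAP males, homozygous for the mutant allele and called mutants here, with Dnmt3C IAP/WT males, called controls, at 16.5 days post coitum (dpc) and at 10 and 20 days post partum (dpp). Controls are heterozygous, so every animal carried at least 1 IAP allele, and all were hybrids of C3H/HeJ and C57BL/6J. Each genotype had 1 library at 16.5 dpc, 1 at 10 dpp and 2 at 20 dpp. The labels do not state whether the 2 libraries per genotype at 20 dpp are separate animals, and p-values therefore describe library spread, which may be technical. The RNA came from whole testis, so fewer cells of a type and less RNA per cell cannot be told apart.

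DNMT3A and DNMT3B set new methyl groups on cytosine (de novo methylation), and DNMT3L, which has no catalytic activity of its own, stimulates them. DNMT1 copies methylation onto the new strand at replication (maintenance), and UHRF1 binds the hemimethylated DNA and brings DNMT1 to it. In male germ cells the methylation pattern is erased in primordial germ cells and laid down again in the prospermatogonia of the fetal testis, where DNMT3L is known to be required. DNMT3C, the gene disrupted here, is a rodent enzyme that methylates the promoters of young retrotransposons. Its gene arose as a duplicate of Dnmt3b and lies beside it, so reads from similar stretches may have been split or shared between them and the Dnmt3b values are uncertain to that extent. The transcript of the targeted gene was not analysed here, and the genotypes rest on the labels alone.

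The libraries held between 57166311 and 155742823 reads on genes. At 20 dpp the 2 mutant libraries differed by at least 2-fold in 1261 of 17194 genes (7.33%) and the 2 control libraries in 1114 (6.48%). Sertoli cell markers were listed at all ages, as whole testis should hold (24 of 24). Their summed level at 20 dpp was 11240 and 11891 CPM (counts scaled to the same total of gene reads) in mutants, against 3739 and 4261 CPM in controls. The 23 listed of 25 markers of pachytene spermatocytes, the cells of mid-meiosis, summed to 1465 and 1113 CPM in mutants and to 14831 and 14115 CPM in controls.

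All coordinates are on mm10 with GENCODE M21. Dnmt3a lies at chr12:3806007-3914443 on the plus strand, Dnmt3b at chr2:153649450-153687730 on the plus strand, and Dnmt3l at chr10:78041947-78063622 on the plus strand. Dnmt1 lies at chr9:20907209-20959888 on the minus strand and Uhrf1 at chr17:56303321-56323486 on the plus strand. Each gene has between 7 and 18 annotated transcripts, and the deposited counts pool all of them. In mouse, Dnmt3l and Dnmt1 are known to be transcribed from germ cell start sites as well as somatic ones, and Dnmt3a has an internal start used in germ cells. The counts cannot say which start was used.

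Start regions of 4 genes are shown, those of the maintenance pair beside those of Dnmt3b and Dnmt3l, which differed in opposite directions at 20 dpp. RefSeq (GRCm38.p6, the mm10 build) gives 12 windows for the 5 genes, each of 300 bases, 250 before and 50 after an annotated start. Windows were searched on both strands for TTTCGCGC, TTTGGCGC, TTTCCCGC and TTTGCCGC, forms of the binding motif of the E2F factors, which drive genes of the S phase. No match overlaps another. In all, 2.26% of 32817 windows hold one of these. Among the 12, a Uhrf1 window (chr17:56304063-56304362, plus strand) holds TTTCGCGC 185 bases before the start. A Dnmt1 window (chr9:20952574-20952873, minus strand) holds TTTCGCGC 219 bases before the start and TTTGGCGC 33 bases after it. Each distance is from the annotated start of that window. Other annotated starts lie upstream of these motifs, at chr9:20952979 and chr9:20959888 for Dnmt1 and at chr17:56303337 for Uhrf1. The motifs stand in capitals, as they read on the gene's strand, so a motif of the other strand appears as its reverse complement.
Uhrf1: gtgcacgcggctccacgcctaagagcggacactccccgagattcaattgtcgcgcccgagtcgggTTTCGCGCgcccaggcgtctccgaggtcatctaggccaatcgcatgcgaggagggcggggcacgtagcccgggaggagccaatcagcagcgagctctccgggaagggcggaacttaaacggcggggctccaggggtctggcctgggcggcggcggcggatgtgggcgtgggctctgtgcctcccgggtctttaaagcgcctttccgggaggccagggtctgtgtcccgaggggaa
Dnmt1: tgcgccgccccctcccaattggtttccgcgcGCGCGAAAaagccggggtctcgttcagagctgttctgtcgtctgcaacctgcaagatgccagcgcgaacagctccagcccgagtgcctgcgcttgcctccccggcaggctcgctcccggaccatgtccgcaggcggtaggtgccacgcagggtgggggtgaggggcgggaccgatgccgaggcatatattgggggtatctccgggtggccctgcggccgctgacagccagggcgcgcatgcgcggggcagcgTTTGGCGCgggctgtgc
The other 10 windows hold none of the 4 strings, which says only that these letters are not there. The windows also differ in CpG dinucleotides, the target of these enzymes, for which all windows have a median of 7. The Dnmt3b window (chr2:153649199-153649498, plus strand) holds 30 and the middle Dnmt3l window (chr10:78049592-78049891, plus strand) holds 4, in capitals here.
Dnmt3b: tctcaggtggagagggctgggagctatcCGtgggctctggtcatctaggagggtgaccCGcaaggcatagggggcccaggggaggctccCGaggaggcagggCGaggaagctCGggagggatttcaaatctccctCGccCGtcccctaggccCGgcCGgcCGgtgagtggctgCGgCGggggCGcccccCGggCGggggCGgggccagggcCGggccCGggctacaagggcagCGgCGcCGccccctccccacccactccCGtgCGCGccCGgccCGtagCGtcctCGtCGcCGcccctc
Dnmt3l: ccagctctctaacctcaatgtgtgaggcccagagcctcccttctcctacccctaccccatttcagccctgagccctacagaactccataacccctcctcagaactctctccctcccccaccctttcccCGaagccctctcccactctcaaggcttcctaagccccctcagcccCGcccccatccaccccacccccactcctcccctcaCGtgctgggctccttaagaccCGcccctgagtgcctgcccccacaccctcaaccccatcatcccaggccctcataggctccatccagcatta
The 3 windows of Dnmt3l hold 6, 4 and 3 CpG, and the 3 windows of Dnmt3a hold 46, 47 and 18. Both printed maintenance windows hold 33, while the windows not printed hold 2 and 12 for Dnmt1 and 12 for Uhrf1. No methylation was measured here, and nothing in the counts bears on binding at these motifs.

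Levels across ages are normalised reads per kilobase of exon on a scale common to all 8 libraries. The scale is the median of ratios over the 16282 shared genes. Comparison of the 5 genes with each other is rough. The exon length joins all annotated transcripts of a gene, giving 16642 bases for Dnmt3a (18 transcripts) and between 2988 and 7377 for the others. Levels of 1 gene against another, and ratios and shares made from them, depend on this length. The de novo enzymes peaked at different ages, Dnmt3a in the fetal testis and Dnmt3b at 10 dpp. Dnmt3a stood at 2135 in the mutant and 1875 in the control library at 16.5 dpc, and at 1292 (mutant) and 1300 (control) at 10 dpp. At 20 dpp Dnmt3a stood at 896 and 1178 in mutants, against 485 and 460 in controls. Its highest values were therefore fetal and its lowest were those of the 20 dpp controls. Dnmt3b stood at 374 in the mutant and 337 in the control library at 16.5 dpc, and at 1537 (mutant) and 1517 (control) at 10 dpp. At 20 dpp it stood at 768 and 920 in mutants, against 407 and 421 in controls. Dnmt3b was thus highest at 10 dpp in both genotypes and lowest in the fetal testis, although scaled by total gene reads the 20 dpp controls were lowest, at 17.5 and 19.6 CPM, against 22.1 CPM (mutant) and 19.8 CPM (control) at 16.5 dpc.

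Dnmt3l had the widest range of the 5. It stood at 1369 in the mutant and 741 in the control library at 16.5 dpc, and at 17.6 (mutant) and 21.3 (control) at 10 dpp. At 20 dpp it stood at 21.4 and 22.9 in mutants, against 181 and 115 in controls. The 20 dpp mutants were just above the 10 dpp level, and the 20 dpp controls were well above both. The maintenance genes varied far less. Dnmt1 stood at 2808 in the mutant and 2689 in the control library at 16.5 dpc, at 3018 (mutant) and 3326 (control) at 10 dpp, and at 2131 and 2768 in mutants against 3049 and 2945 in controls at 20 dpp. Uhrf1 stood at 3066 in the mutant and 3060 in the control library at 16.5 dpc, at 2537 (mutant) and 2776 (control) at 10 dpp, and at 2084 and 1824 in mutants against 4243 and 4335 in controls at 20 dpp. Uhrf1 was highest in the 20 dpp controls and lowest in the 20 dpp mutants, with every earlier library between them.

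**Figure D1:**
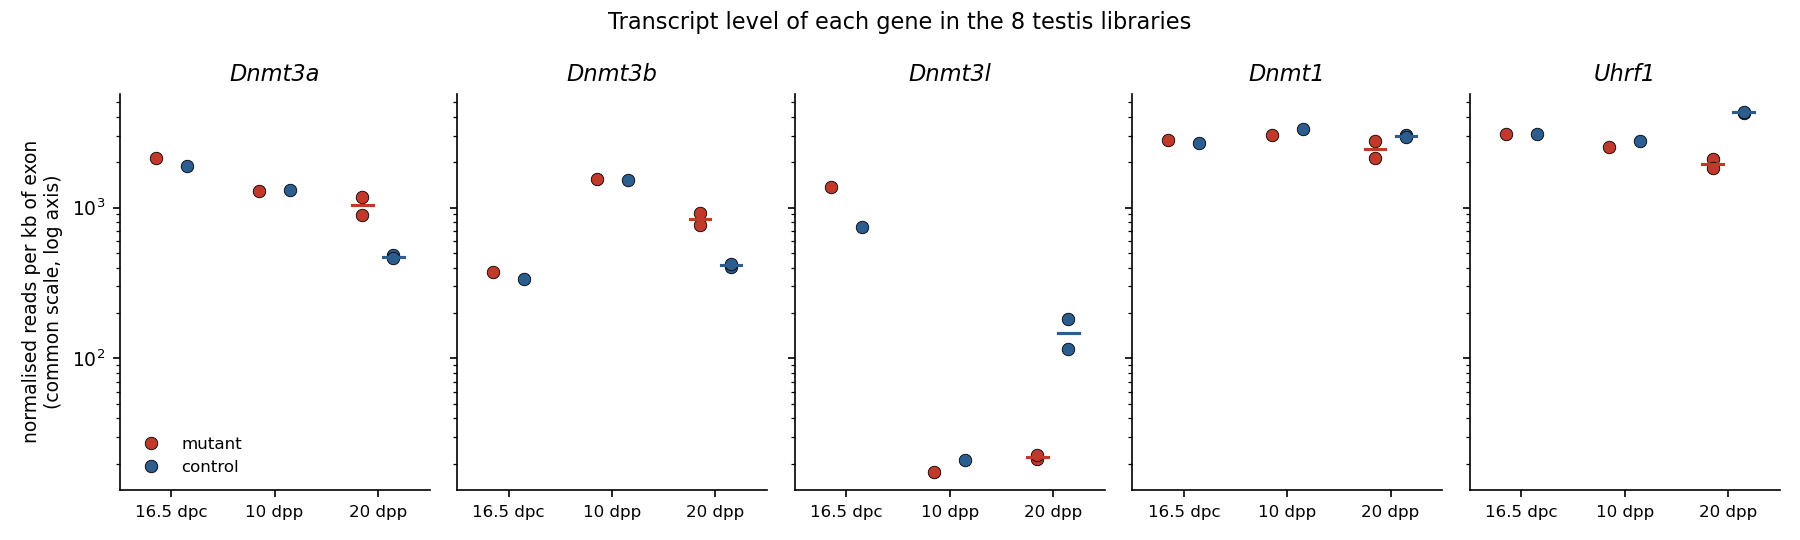
Level of each gene in the 8 testis libraries, in normalised reads per kilobase of exon on a log axis, with age from 16.5 dpc to 20 dpp on the horizontal axis and mutants drawn left of controls; each point is 1 library. Dnmt3l lies at 1369 (mutant) and 741 (control) before birth and at 17.6 (mutant) and 21.3 (control) at 10 dpp. At 20 dpp the mutants lie above the controls for Dnmt3a and Dnmt3b and below them for Dnmt3l, Dnmt1 and Uhrf1. For Dnmt1 the direction is reversed when libraries are scaled by total gene reads.

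Between 10 and 20 dpp, 1 of the 5 genes changed in mutant testis, against 21.9% of all genes (11.8% higher and 10.1% lower at 20 dpp). These are adjusted p-values from limma over all genes, and the spread in them came from the 20 dpp pairs alone because each earlier group is 1 library. Dnmt3b was lower at 20 dpp, with a log2 difference of -0.87 ± 0.19 (adjusted p = 0.0161, and 0.0708 without the trend in the spread). Dnmt3a gave -0.33 ± 0.19 (adjusted p = 0.239), Dnmt3l 0.32 ± 0.44 (0.628), Dnmt1 -0.31 ± 0.18 (0.252) and Uhrf1 -0.38 ± 0.15 (0.111). Without the second mutant library, Dnmt3a gave -0.53 (adjusted p = 0.0220) and Dnmt1 -0.50 (0.0269), and without the first, Uhrf1 gave -0.48 (0.0427), all 3 then below the threshold of 0.05.

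In control testis, 4 of the 5 genes changed over the same interval, where 61.7% of all genes did (32.1% higher and 29.6% lower at 20 dpp). Dnmt3a was 2.75-fold lower at 20 dpp than at 10 dpp (log2 difference -1.46 ± 0.19 (SE), limma adjusted p = 3.2e-04) and Dnmt3b 3.67-fold lower (-1.87 ± 0.19, adjusted p = 8.8e-05). In the opposite direction, Dnmt3l was 6.67-fold higher (2.74 ± 0.44, adjusted p = 0.00105) and Uhrf1 1.54-fold higher (0.63 ± 0.15, adjusted p = 0.0076). Dnmt1 gave -0.15 ± 0.18 (adjusted p = 0.499). Scaled by total gene reads instead, Uhrf1 gave 0.0947 (adjusted p = 0.646) and Dnmt1 gave -0.68 (adjusted p = 0.0081).

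Between 16.5 dpc and 10 dpp, 2 of the 5 genes passed the threshold in each genotype, Dnmt3b and Dnmt3l. Over all genes 20.2% did so in mutants (9.64% higher, 10.6% lower) and 20.7% in controls (10.1% higher, 10.6% lower). Each of these comparisons sets 1 library against 1, and the spread was taken from the 20 dpp pairs alone. At 10 dpp Dnmt3l had only 43 reads in the mutant and 54 in the control library. Dnmt3b was higher at 10 dpp by 2.04 ± 0.22 in mutants (adjusted p = 8.9e-04) and by 2.17 ± 0.22 in controls (6.5e-04). Dnmt3l was 76.3-fold lower at 10 dpp in mutants (log2 difference -6.25 ± 0.51, adjusted p = 3.0e-04) and 34.3-fold lower in controls (-5.10 ± 0.51, adjusted p = 6.7e-04). Only 0.0246% of genes in mutants and 0.141% in controls had a log2 difference as low as that of Dnmt3l. Dnmt3a gave -0.73 ± 0.21 in mutants (adjusted p = 0.0500067, just over the threshold) and -0.53 ± 0.21 in controls (0.125). With the first or the second 20 dpp mutant library left out, which alters the spread, the adjusted p for Dnmt3a became 0.00296 or 0.0031 in mutants and 0.0195 or 0.0200 in controls.

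At 20 dpp the de novo enzymes were higher in mutants and Dnmt3l and Uhrf1 were lower. Values here are normalised reads as scaled within the age by the authors, and 4 of the 5 genes passed the test, against 59.5% of all 17194 genes (26.4% higher in mutants and 33.1% lower). Dnmt3a had 17470 and 22579 normalised reads in mutants, against 9788 and 9413 in controls. Both mutants lay above both controls, a 2.07-fold difference (log2 1.05 ± 0.15 (SE, n = 2 each), limma adjusted p = 8.4e-04). Dnmt3b had 4596 and 5407 in mutants, against 2518 and 2640 in controls. The groups did not overlap, and Dnmt3b was 1.93-fold higher in mutants (0.95 ± 0.16, limma adjusted p = 0.00161).

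Dnmt3l had 74.8 and 78.8 normalised reads in 20 dpp mutants, against 656 and 420 in controls. It was 6.77-fold lower in mutants (log2 -2.76 ± 0.39, limma adjusted p = 7.6e-04), with no overlap although the 2 controls differed from each other more than the 2 mutants did. Uhrf1 had 10401 and 8947 in mutants, against 21920 and 22678 in controls. That was 2.31-fold lower in mutants (-1.21 ± 0.13, limma adjusted p = 1.8e-04), again with no overlap. Dnmt1 had 18422 and 23516 in mutants, against 27283 and 26685 in controls. The 2 groups of Dnmt1 did not overlap, but the difference of -0.37 did not pass the test (95% interval -0.71 to -0.03, limma adjusted p = 0.0578). Dnmt1 passed without the second mutant library (-0.55, adjusted p = 0.00572), and with scaling by repeat families (-0.48, 0.0417). Its direction was reversed, at 0.22 (0.184), with scaling by total gene reads.

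Changes of this size were common at 20 dpp. With 2 libraries each, an exact two-sided permutation test of groups that do not overlap gives p = 0.333 at best. The share of all genes without overlap is not given here. A difference at least as high as that of Dnmt3a was found in 12.1% of all genes and one as high as that of Dnmt3b in 15.7%. A difference as low as that of Dnmt3l was found in 9.45%, as that of Uhrf1 in 21.7% and as that of Dnmt1 in 37.8%. The median over all genes was 0.05, and 0.64 with scaling by total gene reads. Under that scaling Dnmt3a gave 1.64, Dnmt3b 1.55, Dnmt3l -2.17 and Uhrf1 -0.61 (adjusted p = 0.0054), so the 4 calls and their directions were the same.

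Beside Dnmt3a and Dnmt3b, genes of cells that are not in meiosis were more often higher than lower in 20 dpp mutants. Of 97 measured genes in 7 lists of such cells (spermatogonia, Sertoli, Leydig, peritubular myoid and endothelial cells and leukocytes), 53 were higher in mutants, 7 were lower and 37 did not pass, with a median log2 difference of 0.82 (26.4% of all genes were higher and 33.1% lower). Sertoli markers had 22 of 24 higher and none lower (median 0.99), undifferentiated spermatogonia 10 of 18 higher and 3 lower (0.96), and differentiating spermatogonia 7 of 9 higher and 1 lower (0.79). Peritubular myoid genes had 5 of 10 higher and none lower (0.83). The other 3 lists had lower medians, with 5 of 14 leukocyte genes higher and 1 lower (0.51), 3 of 12 Leydig genes higher and 1 lower (0.40), and 2 of 11 endothelial genes higher and 1 lower (0.30). The log2 differences of Dnmt3a (1.05) and Dnmt3b (0.95) were near the medians of the Sertoli and undifferentiated spermatogonial lists and above those of the Leydig, endothelial and leukocyte lists.

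Each library was therefore also centred on the mean log2 value of the 97 genes, whose own mean difference was 0.60, below their median of 0.82. Relative to them, Dnmt3a differed by 0.45 (95% interval -0.08 to 0.98, limma adjusted p = 0.173) and Dnmt3b by 0.35 (-0.19 to 0.89, 0.315). Neither passed, and both intervals hold 0 as well as differences of nearly 1. The other 3 were lower, with differences of -3.36 for Dnmt3l (adjusted p = 4.4e-11), -1.81 for Uhrf1 (2.0e-10) and -0.97 for Dnmt1 (0.00199), so 3 of the 5 passed, against 47.3% of all genes (3.81% higher and 43.5% lower). In this fit limma pooled the spread fully over genes, and the Dnmt1 call was lost without the first mutant library (-0.67, adjusted p = 0.262) or the first control library (-0.83, 0.0815).

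Which cells served as the centre mattered for the de novo enzymes. Centred on the 27 spermatogonial genes, whose mean difference was 0.53, Dnmt3a differed by 0.52 (limma adjusted p = 0.0242) and Dnmt3b by 0.42 (0.0595). That mean lay below the medians of the undifferentiated (0.96) and differentiating (0.79) lists. Its largest falls were -3.81 for Dmrtb1, -2.35 for Id4 and -1.34 for Tex101, which is also on the spermatid list. Of the undifferentiated genes 10 of 18 were higher, and of the differentiating ones 7 of 9. A centre without the falling genes was not tested. Centred on the 24 Sertoli genes, whose mean difference was 0.98, Dnmt3a gave 0.07 (0.721) and Dnmt3b -0.03 (0.901). Dnmt3l, Uhrf1 and Dnmt1 were lower under both centres, Dnmt1 with differences of -0.90 (0.00146) and -1.35 (9.5e-05). Against these 3 centres Dnmt3a passed only on the spermatogonial one and Dnmt3b on none, while Dnmt3l, Uhrf1 and Dnmt1 were lower on each.

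**Figure D2:**
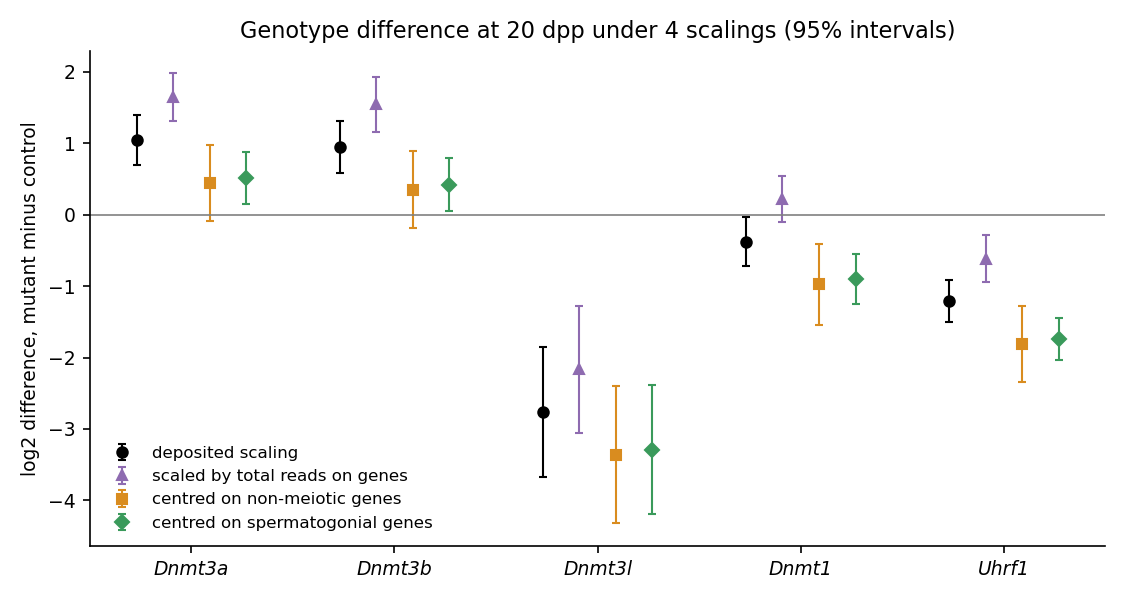
Log2 difference of each gene at 20 dpp, mutant minus control, with 95% intervals from limma (2 libraries each). The 4 scalings are as deposited, by total reads on genes, and relative to all non-meiotic genes and to spermatogonial genes. Dnmt3a and Dnmt3b lie at 1.64 and 1.55 with total reads, and at 0.45 and 0.35 relative to non-meiotic genes. Dnmt3l and Uhrf1 stay below 0 on each scaling.

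Meiotic markers moved the other way from Dnmt3a and Dnmt3b. Of 23 measured pachytene markers 21 were lower in 20 dpp mutants, 1 was higher and 1 did not pass (median log2 difference -5.79), and all 17 measured spermatid markers were lower (median -5.84). Of 26 markers of early meiosis 14 were lower and 6 higher (median -0.61). Dnmt3l and Uhrf1, at -2.76 and -1.21, were lower by less than the pachytene median. No pachytene marker was at 0 in a listed library, since the tables list no gene below 5 reads. The part of cell makeup in the differences of the 5 genes was not tested.

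At 16.5 dpc Dnmt3l stood out. With 1 library per genotype no test of the genotypes was run at this age, and the intervals given cover counting error only. Dnmt3l had 3526 reads in the mutant and 1461 in the control library, or 3095 normalised reads in the mutant and 1665 in the control, a ratio of 1.86 (95% interval 1.75 to 1.98). Only 6 of the 11423 genes with at least 1000 reads in both libraries together, Dnmt3l included, had a ratio as high (0.0525%). Dnmt3a gave 1.15 (1.13 to 1.17), Dnmt3b 1.12 (1.04 to 1.21), Dnmt1 1.05 (1.03 to 1.08) and Uhrf1 1.01 (0.980 to 1.04). None of the 5 reached the 2-fold used to list a gene, which 0.734% of all 17709 genes did (0.497% higher, 0.237% lower).

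Germ cell genes also tended to be higher in the same mutant library. A list of 16 genes of fetal germ cells, chosen after the 16.5 dpc values had been seen, had 16 of 16 ratios above 1. Its log2 ratios ran between 0.09 and 0.63 with a median of 0.38, against a log2 ratio of 0.89 for Dnmt3l and a median of 0.00287 over all genes. Its summed level was 1897 CPM in the mutant and 1472 CPM in the control library. The other germ cell lists were less uniform, with 14 of 18 ratios above 1 for undifferentiated spermatogonia (median 0.22), 7 of 8 for differentiating spermatogonia (0.32) and 21 of 26 for early meiosis (0.24). Of 101 genes on the 6 germ line lists, 7 had a ratio above that of Dnmt3l, with 25 to 654 reads in both libraries together. Scaled to the list of 16, Dnmt3l had a log2 ratio of 0.53. Sertoli genes had a median of 0.10 and S phase genes one of -0.02. Whether the mutant sample held more germ cells was not tested.

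At 10 dpp the 5 genes differed little between the single libraries of each genotype. Dnmt3a had a ratio of mutant over control of 0.996 (95% counting interval 0.976 to 1.02) and Dnmt3b of 1.02 (0.981 to 1.05). Dnmt3l, at 43 reads in the mutant and 54 in the control library, gave 0.828 (0.542 to 1.26), an interval too wide to tell a fall from a rise. The maintenance genes were slightly lower in the mutant library, Dnmt1 at 0.910 (0.892 to 0.928) and Uhrf1 at 0.916 (0.890 to 0.943). Genes of the S phase were lower beside them, with 3 of 25 ratios above 1 and a median log2 ratio of -0.13, against -0.14 for Dnmt1 and -0.13 for Uhrf1. None of the 5 was listed, against 0.886% of all 17376 genes (0.374% higher, 0.512% lower).

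**Figure D3:**
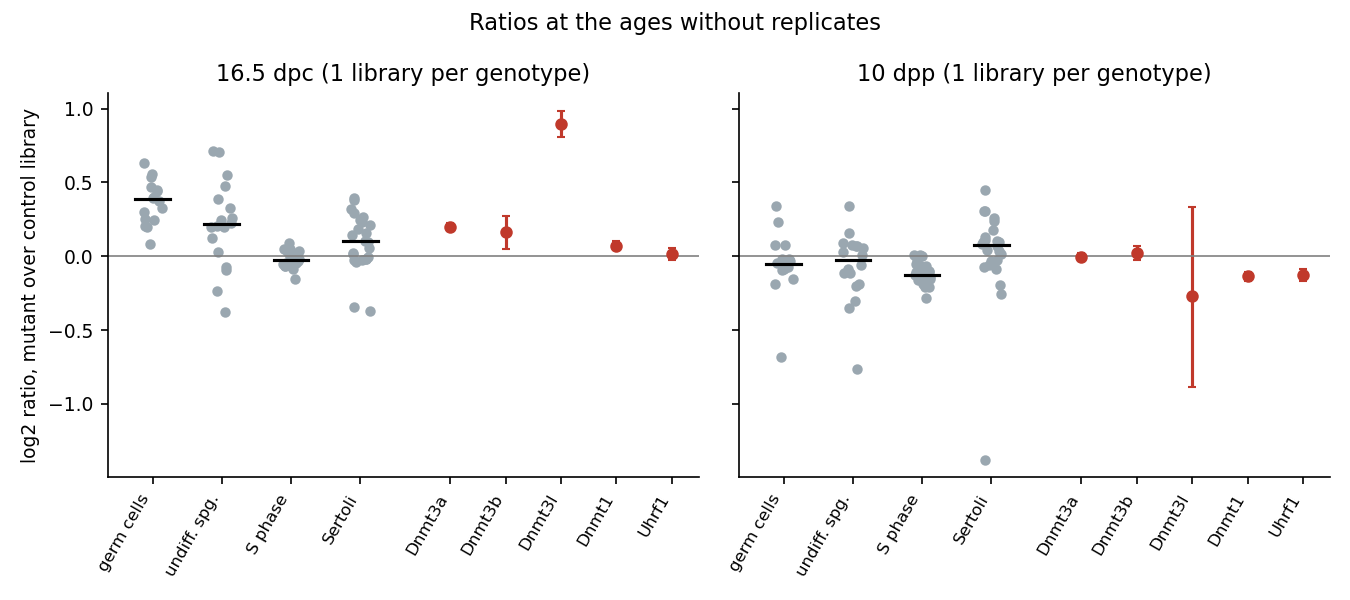
Log2 ratios of the mutant over the control library at 16.5 dpc and 10 dpp (1 library per genotype), for the genes of 4 lists (each point 1 gene) and for the 5 genes with 95% counting intervals. At 16.5 dpc Dnmt3l, at 0.89, lies above the highest of the 16 fetal germ cell genes, at 0.63, and at 10 dpp Dnmt1 and Uhrf1 lie at -0.14 and -0.13.

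The genotype difference changed with age for 4 of the 5 genes, tested as a difference of differences in the fit over all 8 libraries. From 10 to 20 dpp, 32.7% of all genes did so (11.5% upward, 21.3% downward), and from 16.5 dpc to 20 dpp 34.1% (12.4% and 21.7%). The mutant minus control difference was larger at 20 than at 10 dpp by 1.13 ± 0.26 for Dnmt3a (limma adjusted p = 0.0150) and by 1.00 ± 0.26 for Dnmt3b (0.0234). It changed by -2.41 ± 0.62 for Dnmt3l (0.0223) and by -1.01 ± 0.21 for Uhrf1 (0.0103), and Dnmt1 gave -0.16 ± 0.26 (0.643). Against 16.5 dpc the values were 0.93 (0.0291), 0.87 (0.0372), -3.57 (0.00422), -1.14 (0.00575) and -0.37 (0.299) in the same order of genes. For Dnmt1 both were reversed with scaling by total gene reads, at 0.37 and 0.15. Each rests on 1 library per genotype at the earlier age. Uhrf1 then gave -0.47 (0.140) and -0.62 (0.0664). The 10 dpp calls for Dnmt3a, Dnmt3b and Uhrf1 were lost without the first control library (adjusted p = 0.0597, 0.0754 and 0.0501), as was that for Dnmt3l (0.0659). Those for Dnmt3a and Dnmt3b were also lost without the second control library (0.0563 and 0.0533). Of the calls against 16.5 dpc, those for Dnmt3a and Dnmt3b were lost without the first (0.0911 and 0.104) or the second control library (0.0911 and 0.0740), and that for Dnmt3b also without the second mutant library (0.0511). Without the trend in the spread, the calls for Dnmt3a, Dnmt3b and Uhrf1 were lost at both intervals, with adjusted p between 0.0527 and 0.118.

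Ratios between members inside a library do not depend on how libraries are scaled. The level per kilobase of Dnmt3a, Dnmt3b and Dnmt3l together over that of Dnmt1 and Uhrf1 together was 0.660 in the mutant and 0.514 in the control library at 16.5 dpc, and 0.512 (mutant) and 0.465 (control) at 10 dpp. At 20 dpp it was 0.400 and 0.462 in mutants, against 0.147 and 0.137 in controls. The 20 dpp mutants had a ratio near that of 10 dpp, 3.03-fold above the 20 dpp controls, with no overlap. An exact two-sided permutation test of 2 against 2 libraries gave p = 0.333, the smallest it can give.

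Dnmt3l over Dnmt3a, the cofactor relative to its enzyme, was 0.641 in the mutant and 0.395 in the control library at 16.5 dpc, and 0.0136 (mutant) and 0.0164 (control) at 10 dpp. At 20 dpp it was 0.0238 and 0.0194 in mutants, against 0.373 and 0.249 in controls, 14.2-fold lower in mutants. Uhrf1 over Dnmt1 was 0.978 and 0.659 in 20 dpp mutants, against 1.39 and 1.47 in controls, 1.78-fold lower in mutants, and neither group overlapped the other in either ratio (exact permutation p = 0.333 for both). Dnmt3b over Dnmt3a was 0.858 and 0.781 in 20 dpp mutants, against 0.839 and 0.914 in controls, which overlapped (exact permutation p = 0.667). Between ages this last ratio moved more, at 0.175 in the mutant and 0.180 in the control library at 16.5 dpc, and 1.19 (mutant) and 1.17 (control) at 10 dpp.

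As shares of the 5 genes' summed level per kilobase, Uhrf1 took 35.3% and 27.2% in 20 dpp mutants, against 50.7% and 52.4% in controls. Dnmt3a took 15.2% and 17.5% in mutants, against 5.80% and 5.56% in controls. Dnmt1 took 36.1% and 41.2% in mutants, against 36.5% and 35.6% in controls. The share of Dnmt1 lay between 28.8% and 41.2% over all 8 libraries, while that of Dnmt3l lay between 0.210% and 14.0%.

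**Figure D4:**
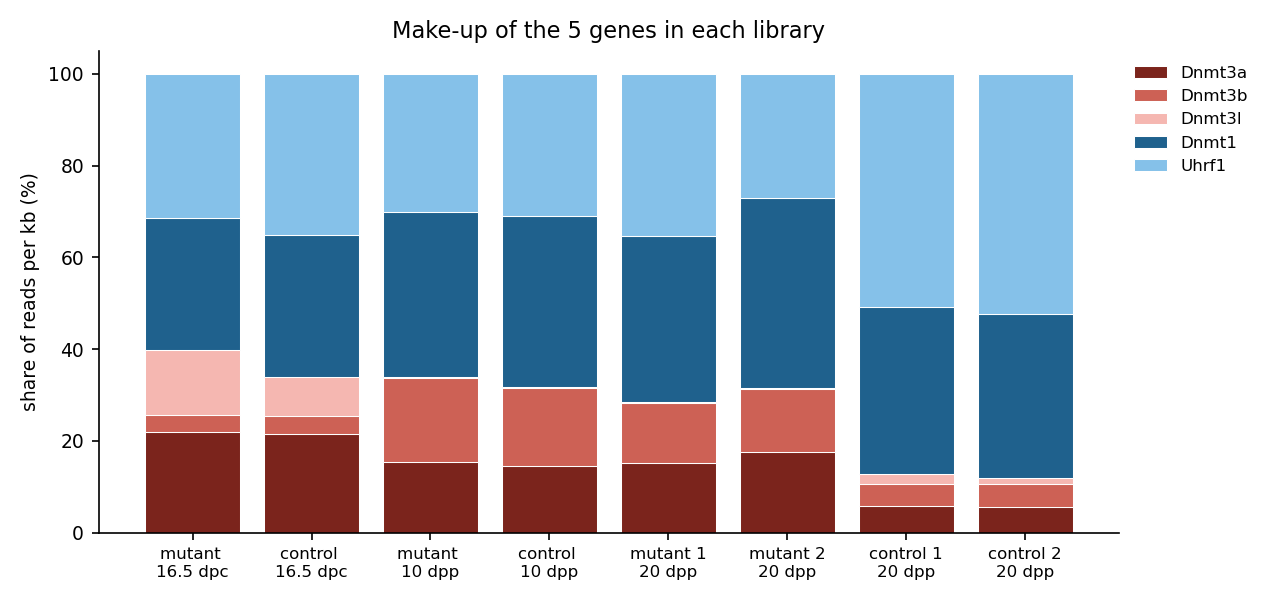
Share of each gene in the summed level per kilobase of the 5 genes (vertical axis, percent), with 1 bar per library, mutant left of control within each age. Dnmt3a takes 15.2% and 17.5% in 20 dpp mutants, near its 15.4% (mutant) and 14.5% (control) in the 10 dpp libraries, and the 20 dpp controls have the largest Uhrf1 segment.

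The other genes of DNA methylation moved in both directions at 20 dpp. Of 29 measured genes of a list of 30, which held demethylation enzymes, readers of methylation and partners of the methyltransferases, 15 were higher in mutants, 8 were lower and 6 did not pass (median 0.44, against 0.05 over all genes, of which 26.4% were higher and 33.1% lower). At 16.5 dpc and 10 dpp none of the 29 was listed, with median log2 ratios of -0.01 and 0.00388. The TET enzymes, which oxidise methylcytosine and so oppose the methyltransferases, were all higher at 20 dpp. Tet2 had 4286 and 5729 normalised reads in mutants, against 1259 and 1481 in controls (log2 1.86 ± 0.20, limma adjusted p = 2.0e-04). Tet3 differed by 1.21 ± 0.22 (0.00285) and Tet1 by 0.99 ± 0.30 (0.0244). The 3 TET genes thus moved the same way as Dnmt3a and Dnmt3b, and as 53 of the 97 non-meiotic genes (7 lower, median 0.82). Values of the TET genes relative to those genes are not given here.

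The 3 largest rises of the list were those of Tet2, of Apobec1, a cytidine deaminase (1.46 ± 0.38, limma adjusted p = 0.0130), and of Atrx, a chromatin remodeller (1.29 ± 0.14, 2.4e-04). The 3 largest falls were those of Zfp57, Tdrd9 and Trim28. Zfp57, a zinc finger protein that keeps methylation at imprinted loci, had 326 and 362 normalised reads in mutants, against 2561 and 1650 in controls (-2.58 ± 0.28, limma adjusted p = 2.2e-04), a fall close to that of Dnmt3l at -2.76. Tdrd9, a helicase of the piRNA pathway, had 9975 and 9997 in mutants, against 56478 and 53302 in controls (-2.46 ± 0.11, 3.6e-06), and is also on the germ cell list. Trim28, the corepressor that ZFP57 recruits, differed by -1.30 ± 0.12 (7.9e-05).

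Uhrf2, the paralog of Uhrf1, was chosen for mention after its values were seen. It had 9556 and 7563 normalised reads in mutants, against 5929 and 5999 in controls, and was higher in mutants by 0.51 ± 0.15 (limma adjusted p = 0.0220) where Uhrf1 differed by -1.21. The rise of Uhrf2 was below the mean (0.60) and the median (0.82) of the 97 non-meiotic genes. No value of Uhrf2 centred on those genes is given here. Genes of the S phase, when DNMT1 and UHRF1 act, had 11 of 25 higher, 9 lower and 5 not passing, beside 26.4% higher and 33.1% lower among all genes. Their median was 0.29 and their mean -0.15, which differ in sign (range -2.42 to 1.05). Centred on that list, a choice made after the data were seen, Dnmt1 differed by -0.23 (limma adjusted p = 0.196), Dnmt3a by 1.20 (3.9e-04) and Dnmt3b by 1.10 (7.5e-04). Uhrf1 differed by -1.06 (3.7e-04) and Dnmt3l by -2.61 (9.5e-04) on that centre, both still called.

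**Figure D5:**
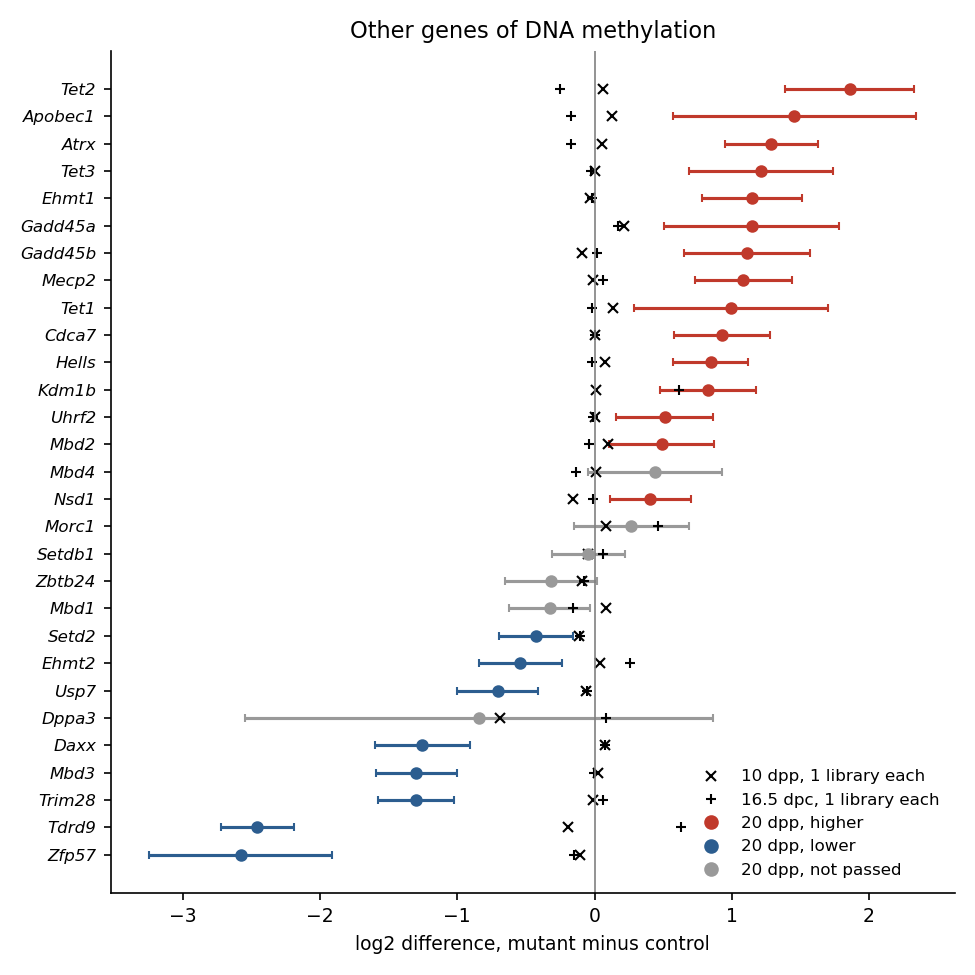
Log2 difference at 20 dpp, mutant minus control, of the 29 measured other genes of DNA methylation, with 95% intervals from limma, sorted by size, and the ratios of the single libraries at 16.5 dpc and 10 dpp beside them. The 20 dpp values run between -2.58 for Zfp57 and 1.86 for Tet2.

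Over the 8 libraries each gene was compared with 11958 others with a mean of at least 500 normalised reads, by Pearson's r of log2 normalised reads, as a description. The 8 points include 4 libraries of 20 dpp, so the genotype split at that age weighs on r. Dnmt3a was most like Chek1 (r = 0.997), Bckdk (0.996) and Hs1bp3 (0.995), and Dnmt3b like Lrig1 (0.997), AU015836 (0.997) and Ret (0.996). Dnmt3l was most like Hmga2 (0.988), Dnm1 (0.987) and Zranb3 (0.984). Uhrf1 was most like Ndufs4 (0.994), Immp1l (0.993) and Atp6v1g1 (0.993). Dnmt1, whose level varied least, had lower values, with Kat6a (0.961), Dpf2 (0.921) and Angptl7 (0.921). Among the 5 genes themselves, Dnmt3b and Dnmt3l ran opposite to each other (r = -0.87), and Dnmt3a and Dnmt3b had an r of 0.13.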

How the data were processed

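Whole testis RNA was sequenced in 8 libraries, and per the labels RNA was taken with Trizol and treated with DNase. The submitters' processing notes name mm10, TopHat2 2.0.6, HTSeq 0.6.1 and Bowtie 1.0.0, with no role. For the annotation and the strand setting of the counting, nothing is given in the sources used here, so overlapping genes can share reads. The values the authors deposited are log2 values of normalised reads plus a pseudocount of 1. Whole reads were recovered within 0.01 for 100% of values, and the factors equal median-of-ratios factors computed within each age. The lowest count was 5, so genes near silence are not listed and were not analysed here.

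The plan named a count model or limma, according to the unit found. On these log2 values limma 3.58.1 was run in R 4.3.3 (eBayes with a trend, genes and families together), with Benjamini-Hochberg adjustment over all genes at 0.05. The 20 dpp fit had 2 residual and 5.21 prior degrees of freedom. Ages were compared in a 6-group fit on a common scale. A test on the recovered reads used limma's voom. At 16.5 dpc and 10 dpp, ratios have exact conditional binomial 95% intervals, and a gene was listed at 2-fold, an interval excluding 1 and 50 reads. Scripts were tested on simulated data. Alternatives varied scaling, pseudocount, filter, trend, centre, length, replicates and a replicate block. Named genes were the 5 members, the 3 TET genes, the 3 largest rises and falls among called genes of the methylation list, and the 3 genes most like each member. The members and lists were chosen with earlier results of these data known. The replicate numbers were not taken to pair the 20 dpp libraries.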

Additional observations from a re-analysis of the deposited data

Results flagged for a closer look

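The genotype difference changed with age, by a test of the change itself over the 8 libraries, in 4 genes. Mutant minus control was higher at 20 dpp than at 10 dpp by 1.13 for Dnmt3a and 1.00 for Dnmt3b on the log2 scale, and changed by -2.41 for Dnmt3l and -1.01 for Uhrf1. Set against 16.5 dpc, the changes were 0.93 for Dnmt3a, 0.87 for Dnmt3b, -3.57 for Dnmt3l and -1.14 for Uhrf1. The earlier ages have 1 library per genotype, and the spread comes from the 20 dpp pairs. The 4 changes from 10 dpp were not called without the first control library (limma adjusted p between 0.0501 and 0.0754), 3 of them were not called without the trend in the spread, and that of Uhrf1 was not called with total reads on genes.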

How the results depend on the processing

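Of 442 values under alternatives, 385 kept direction and side of the threshold, or stayed within the spread or within 1.5 times of a count; 5 were reversed, 25 lost a call, 15 gained one and 12 moved. The cause of these changes was not tested. The differences from 16.5 dpc to 10 dpp hold no 20 dpp library, so leaving out a 20 dpp library could hardly move them. With total reads on genes, Dnmt1 was reversed at 20 dpp (0.22) and in the changes of the genotype difference (0.37 against 10 dpp, 0.15 against 16.5 dpc). Uhrf1 lost its calls there (-0.47 and -0.62) and between 10 and 20 dpp in controls (0.0947), where Dnmt1 gained one (-0.68), and genes called higher at 20 dpp numbered 8427, against 4539. Scaled by repeat families they numbered 2972, and Dnmt1 gave -0.48. Without the trend the changes from 10 to 20 dpp of Dnmt3a (1.13), Dnmt3b (1.00) and Uhrf1 (-1.01), those from 16.5 dpc (0.93, 0.87 and -1.14) and Dnmt3b between 10 and 20 dpp in mutants (-0.87) were not called. A pseudocount of 10 brought Dnmt3a in mutants between 16.5 dpc and 10 dpp to -0.72, then called. Relative to non-meiotic genes, Dnmt3b was reversed with the Sertoli centre (-0.0268) and Dnmt3a was called with the spermatogonial one (0.52). An S phase centre, added after the data were seen, gave 1.20 for Dnmt3a and 1.10 for Dnmt3b, both called, and -0.23 for Dnmt1, not called. With the replicate block, Dnmt1 relative to non-meiotic genes was not called (-0.97, adjusted p = 0.0885), and the block changed no other call of a member. The deviations of same-numbered libraries had a correlation of 0.04, a single value since the deviations of 2 libraries mirror each other. It gives no sign of pairing but cannot exclude it. Scaling to the germ cell list, also added later, moved the 16.5 dpc log2 ratios to -0.17 for Dnmt3a, -0.20 for Dnmt3b, 0.53 for Dnmt3l, -0.29 for Dnmt1 and -0.35 for Uhrf1, and those at 10 dpp to 0.0454 for Dnmt3a, 0.0735 for Dnmt3b, -0.0855 for Dnmt1 and -0.0758 for Uhrf1.

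Leaving out each 20 dpp library in turn gave ranges that held a lost, gained or reversed call for these values. Dnmt1 at 20 dpp ran between -0.55 and -0.20, and relative to non-meiotic genes between -1.28 and -0.67. Genes called higher numbered 2945 to 4046, and 2945 without the first control library. The differences of Dnmt3a from 16.5 dpc to 10 dpp, -0.73 in mutants and -0.53 in controls, hold no 20 dpp library. Leaving out a 20 dpp library could therefore alter only the spread used to test them. From 10 to 20 dpp in mutants, Dnmt3a ran between -0.53 and -0.13, Dnmt1 between -0.50 and -0.12 and Uhrf1 between -0.48 and -0.28. The change of the genotype difference from 10 to 20 dpp ran between 0.93 and 1.33 for Dnmt3a, 0.87 and 1.13 for Dnmt3b, -2.74 and -2.08 for Dnmt3l, -1.10 and -0.91 for Uhrf1, and -0.35 and 0.0257 for Dnmt1, reversed without the first mutant library. From 16.5 dpc it ran between 0.74 and 1.13 for Dnmt3a, 0.74 and 1.00 for Dnmt3b, and -0.55 and -0.18 for Dnmt1. A lone library left in an arm is assumed to vary like the other groups.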
